A study of Homo sapiens with 32 samples.

Results

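Growth differentiation factor 15 (GDF15) and 9 further genes that p53 switches on under metabolic or genotoxic stress were followed through 32 polyadenylated RNA libraries from 2 human epithelial lines. The set was given as 10 gene symbols (GDF15, SESN1, SESN2, TP53INP1, TP53I3, TIGAR, ACER2, BTG2, PLK2 and PLK3), and each symbol matched 1 row of a count table of 60332 genes. All 10 passed the filter on low counts in each of the 3 experiments. MCF10A cells are breast epithelium that does not form tumours, and hTERT RPE-1 cells derive from retinal pigment epithelium and divide on through added telomerase.

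The first experiment compared 7 groups of MCF10A cells: cGAS knockout, STING knockout and XRCC4 knockout lines 5 days after 10 Gy of ionizing radiation (IR), WT cells 5 days after IR with a CDK1 inhibitor (CDK1i), untreated WT cells, and WT cells with DMSO 3 and 5 days after IR. The second compared 6 groups of MCF10A cells 3 days after IR: XRCC4 p53 double knockout (DKO) and XRCC4 knockout cells, each with and without an ATR inhibitor (ATRi), p53 knockout cells and WT cells. The third compared 3 hTERT RPE-1 lines 3 days after IR with ATRi: p53 KO, a line labelled WT cGAS, and WT. Each group had 2 libraries, and the labels do not say whether these were separate cultures, so p-values measure only the spread between these libraries. Drugs were added 1 h before IR and kept on until collection. Knockout lines were single-cell colonies made with lentiviral CRISPR-Cas9, so each genotype comparison sets 1 line against another, and no unirradiated knockout cells and no unirradiated RPE-1 cells were analysed here.

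p53 is a transcription factor that is stabilized when DNA is broken and raises genes for cell-cycle arrest, repair and death, and also genes that adjust metabolism. GDF15 is a secreted member of the TGF-beta family whose receptor, GFRAL with RET, lies in the hindbrain, and it is induced both by p53 and by the ATF4 arm of the integrated stress response. SESN1 and SESN2 encode sestrins, which restrain mTORC1 through GATOR2. TIGAR encodes a bisphosphatase that draws sugar phosphates away from glycolysis, TP53I3 an NADPH-dependent quinone reductase, TP53INP1 a nuclear and autophagosomal stress protein, and ACER2 the ceramidase of the Golgi. BTG2 is an antiproliferative protein that recruits mRNA deadenylases, and PLK2 and PLK3 are stress-responsive polo-like kinases.

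The start-site windows of GDF15, PLK2 and SESN1 are shown because GDF15 had the widest fold range in MCF10A cells and because the PLK2 and SESN1 windows were the member windows that held a p53 half-site. They were taken from RefSeq promoter windows on GRCh38.p14, each running from 250 bases before to 50 bases after the start site and printed on the gene's own strand. For 9 of the 10 genes 11 such windows were found, SESN1 having 3. Capitals mark the TATAAA box in GDF15 and the match to the 10-letter p53 half-site consensus in PLK2 and SESN1.
GDF15, chr19:18385908-18386207, plus strand: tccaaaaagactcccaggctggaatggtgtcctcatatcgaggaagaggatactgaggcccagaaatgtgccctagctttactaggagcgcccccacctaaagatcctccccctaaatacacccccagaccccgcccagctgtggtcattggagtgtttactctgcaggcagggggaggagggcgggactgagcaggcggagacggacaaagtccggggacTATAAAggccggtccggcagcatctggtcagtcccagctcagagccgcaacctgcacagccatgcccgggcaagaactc
PLK2, chr5:58460037-58460336, minus strand: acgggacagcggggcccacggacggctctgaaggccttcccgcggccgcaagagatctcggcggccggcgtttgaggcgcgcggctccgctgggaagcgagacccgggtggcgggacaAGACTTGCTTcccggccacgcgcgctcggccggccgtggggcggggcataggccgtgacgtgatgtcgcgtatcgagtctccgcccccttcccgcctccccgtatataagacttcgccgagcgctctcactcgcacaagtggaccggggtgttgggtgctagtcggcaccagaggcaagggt
SESN1, chr6:109008939-109009238, minus strand: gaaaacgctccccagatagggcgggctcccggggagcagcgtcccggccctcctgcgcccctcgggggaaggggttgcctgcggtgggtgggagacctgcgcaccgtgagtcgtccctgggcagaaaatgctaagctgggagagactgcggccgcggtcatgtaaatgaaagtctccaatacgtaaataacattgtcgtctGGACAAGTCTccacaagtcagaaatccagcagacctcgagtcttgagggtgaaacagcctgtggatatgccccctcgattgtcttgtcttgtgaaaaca

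The TATAAA of GDF15 began at position -29 from the start site, and TATAAA on either strand was present in 11.5% of all 35116 windows. The half-site of PLK2 began at position -132 and that of SESN1 at position -49, and a half-site on either strand was present in 6.63% of all windows. Of the other motifs searched, on both strands, CCAAT was present in 34.6% of all windows. The letters GGGCGG were present in 45% of windows. The motif TGATGNAA was present in 3.62% of windows, among them the PLK3 window at position -133. None of these overlapped the capitals printed above. No half-site letters were found in the other 9 member windows, which says nothing of binding outside these 300 bases.

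Total estimated counts ran between 5590061 and 18585999 per library. In the first experiment the 2 libraries of the untreated, IR 3 d, IR 5 d, CDK1i and STING KO groups stood apart from each other, with a chi-square per gene between 21.5 and 45.1, against 2.95 and 3.38 in the cGAS KO and XRCC4 KO groups and between 1.55 and 3.33 in the other two experiments. The cGAS transcript (MB21D1 in the files) was at 1.28 and 1.31 CPM (counts scaled to the library total) in cGAS KO cells, against 17.5 and 15.6 CPM in WT cells at 5 d. The STING transcript (TMEM173) was at 10.4 and 9.19 CPM in STING KO cells, against 84.8 and 54.8 CPM in WT cells at 5 d. XRCC4 mRNA was at 7.74 and 6.53 CPM in XRCC4 KO cells, against 9.78 and 7.66 CPM in WT cells at 5 d, so its level does not check that label. In RPE-1 cells MB21D1 was at 332 and 339 CPM in the WT cGAS line, against 0.143 and 6.42 CPM in WT, and GDF15 is given below without the second WT library. Basal epithelial markers summed to between 5974 and 26272 CPM in MCF10A libraries. The 7 markers of retinal pigment epithelium summed to between 44.0 and 48.4 CPM in RPE-1 libraries and to between 4.84 and 24.6 CPM in MCF10A libraries. Of these 7, RPE65, RLBP1, TYR and PMEL stayed below 1 CPM in every RPE-1 library, while BEST1, MITF and OTX2 did not. The RPE-1 libraries held 4194 to 9495 CPM of fibroblast or mesenchymal markers.

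As a ratio of highest to lowest library, GDF15 had the widest range of the 10 genes in MCF10A cells, between 0.643 and 260.9 CPM. CPM are given after scaling by TMM, a method that evens out library composition. In order of mean CPM over the 16 groups it was highest in WT cells of the second experiment, followed by WT cells at 5 d and at 3 d, XRCC4 KO cells with ATRi and without, untreated WT cells and XRCC4 KO cells at 5 d. Below these came cGAS KO cells, CDK1i-treated cells, the RPE-1 WT cGAS line, STING KO cells, p53 KO cells, RPE-1 WT, RPE-1 p53 KO, DKO cells with ATRi and DKO cells. The libraries of 6 neighbouring pairs in that order overlapped. These were the pairs WT at 5 d and 3 d, WT at 3 d and XRCC4 KO with ATRi, cGAS KO and CDK1i, CDK1i and RPE-1 WT cGAS, STING KO and p53 KO, and the RPE-1 WT and p53 KO pair. The order runs across 3 experiments that share no group, so experiment and group cannot be told apart between them. In WT cells 3 days after IR, GDF15 was at 158 and 82.9 CPM in the first experiment, with DMSO. In the second experiment it was at 260.9 and 260.0 CPM.

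**Figure D1:**
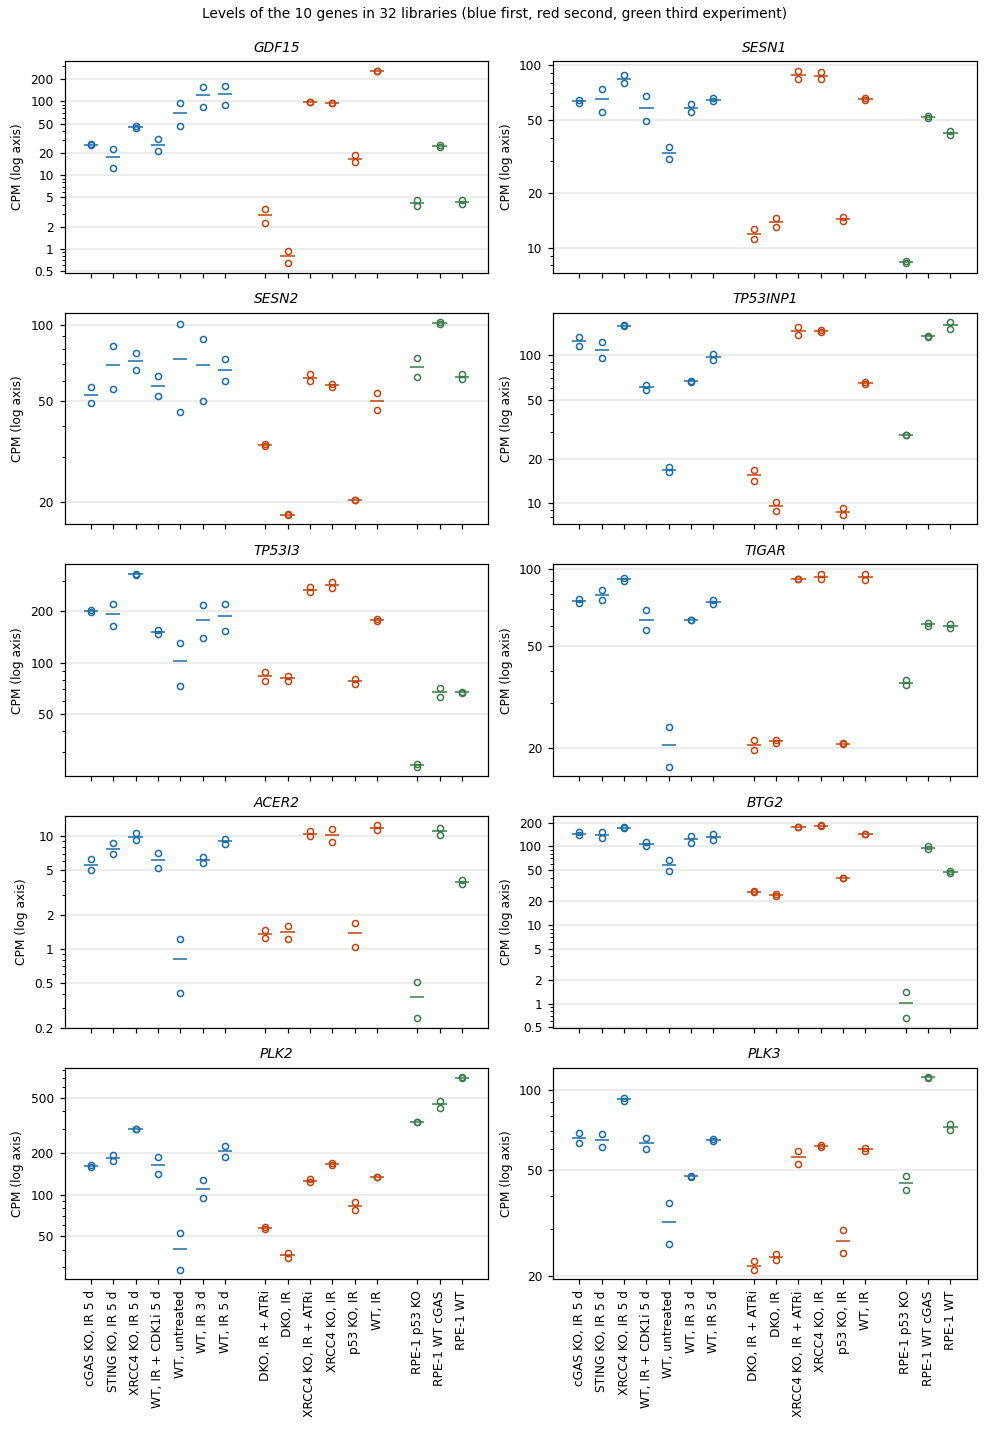
Level of each gene in CPM on a log axis, 1 panel per gene. Circles are the 2 libraries of a group, lines their mean, and colours the 3 experiments. GDF15 spans 0.643 to 260.9 CPM and is lowest in DKO cells, while the SESN2 libraries of untreated WT cells lie apart at 101 and 45.4 CPM.

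Compared per length, the 10 genes were expressed at different levels. In WT cells of the second experiment GDF15 averaged 286 FPKM, the highest of the set, followed by TP53I3 at 186 FPKM and PLK2 at 159 FPKM, with ACER2 lowest at 5.55 FPKM. In DKO cells GDF15 averaged 1.10 FPKM and ranked ninth, above ACER2 at 0.70 FPKM. PLK2 was the highest of the set in all 3 RPE-1 lines, at 439 FPKM in p53 KO, 548 FPKM in WT cGAS and 684 FPKM in WT. Expression of the GDF15 receptor genes was at the floor: GFRAL reached at most 0.0969 CPM and RET at most 0.589 CPM in any library, and neither passed the filter.

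Most of the set was higher in irradiated than in untreated WT MCF10A cells. The irradiated libraries are labelled with DMSO and the untreated ones are not, so irradiation and this vehicle cannot be told apart by the labels. At 3 days 7 of 10 genes were higher than in untreated cells (edgeR quasi-likelihood test, Benjamini-Hochberg adjusted p below 0.05 over all genes tested), against 3.65% of 15190 genes, and none was lower, against 2.87%. At 5 days 8 of 10 were higher, against 15.1% of genes, and none was lower, against 14.3%. The median log2 fold change of the 10 genes was 0.97 at 3 d and 1.09 at 5 d, beside medians of -0.001 and 0.005 over all genes tested. Comparisons of either time with untreated cells share the 2 untreated libraries.

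TP53INP1 was at 17.5 and 16.2 CPM in untreated cells, at 66.8 and 65.9 CPM at 3 d and at 102 and 93.2 CPM at 5 d. Its libraries did not overlap between any of the 3 groups. The log2 fold change over untreated was 1.99 ± 0.14 (SE) at 3 d and 2.52 ± 0.14 at 5 d (edgeR adjusted p = 0.000413 and 1.96e-05). ACER2 was at 1.21 and 0.404 CPM in untreated cells, the second of these resting on 4 counts, at 6.54 and 5.80 CPM at 3 d and at 9.50 and 8.46 CPM at 5 d. It had the largest log2 fold change of the set at both times, 2.87 ± 0.37 at 3 d and 3.37 ± 0.34 at 5 d, against a low untreated level. On log2(FPKM + 1) these values were 1.45 and 1.81. TIGAR was at 24.2 and 17.0 CPM in untreated cells, at 63.6 and 63.7 CPM at 3 d and at 75.8 and 72.9 CPM at 5 d, so that both irradiated groups lay above every untreated library.

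PLK2 was at 28.7 and 53.1 CPM in untreated cells, at 94.9 and 126.8 CPM at 3 d and at 225 and 187 CPM at 5 d. The 3 groups did not overlap, and the log2 fold change at 5 d was 2.32 ± 0.28 (edgeR adjusted p = 0.000728). SESN1, BTG2 and PLK3 were called higher at both times, by log2 fold changes between 0.58 and 1.17. The 3 d calls of SESN1 and PLK3 were each lost in 7 of 13 alternative fits, and PLK3 was at 0.37 without the second untreated library (edgeR adjusted p = 0.069). TP53I3 was called at 5 d (0.87 ± 0.28, edgeR adjusted p = 0.0436) and not at 3 d (0.83 ± 0.29, edgeR adjusted p = 0.109), and the 5 d call is lost with voom sample weights (limma adjusted p = 0.074) or without filtering (edgeR adjusted p = 0.126). Its log2 fold change at 5 d was 0.54 without the second untreated library and 0.57 without the first library at 5 d, neither called (edgeR adjusted p = 0.21 and 0.277). When only the untreated and 3 d libraries were fitted, 0 genes of the set were called at 3 d. That fit called only 1 of all genes tested, against 991 in the main fit. TP53INP1 had a log2 fold change of 2.015 there, beside 1.994 in the main fit.

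GDF15 was at 93.7 and 46.9 CPM in untreated cells, at 158 and 82.9 CPM at 3 d and at 160.0 and 89.4 CPM at 5 d. The lower library of each irradiated group lay below the higher untreated one, so the groups overlapped. The log2 fold change was 0.80 ± 0.43 at 3 d and 0.82 ± 0.42 at 5 d, and neither passed the test (edgeR adjusted p = 0.281 and 0.174). SESN2 was at 101 and 45.4 CPM in untreated cells, at 88.2 and 50.0 CPM at 3 d and at 73.1 and 60.1 CPM at 5 d. It showed no shift in either direction beyond this spread, with log2 fold changes of -0.05 ± 0.36 and -0.14 ± 0.36 (edgeR adjusted p = 0.941 and 0.793). The first library of each of these 3 groups was the higher one for both GDF15 and SESN2. Set against the untreated library of the same number, GDF15 was at 1.69 and 1.77 times its level at 3 d. At 5 d it was at 1.71 and 1.91 times. SESN2, set out in the same way, was at 0.87 and 1.10 times at 3 d and at 0.72 and 1.32 times at 5 d. The labels do not pair these libraries, and GDF15 was not called with number as a block either.

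Between 3 and 5 days no gene of the set was called in edgeR, against 0.217% of genes higher and 0.0461% lower at 5 d. At an unadjusted p below 0.05 3 of the 10 passed, and DESeq2 called 2, TP53INP1 and PLK2. The log2 difference was 0.53 ± 0.13 for TP53INP1 and 0.87 ± 0.26 for PLK2 (edgeR adjusted p = 0.102 and 0.169).

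Other p53 target genes rose with the set. Of 30 other p53 targets, 12 were higher and none lower at 3 d, and 23 were higher and none lower at 5 d, led by CDKN1A, the CDK inhibitor p21 (3.00 ± 0.21), TRIM22 (2.56 ± 0.36) and MDM2, the p53 ubiquitin ligase (2.09 ± 0.16). Of 13 tested genes of a list of other p53 metabolic targets, 5 were higher and 1 lower at 5 d. The higher ones included the sugar transporter gene SLC2A12 (5.33 ± 1.17), RRM2B, a ribonucleotide reductase subunit (1.27 ± 0.12), and FDXR, ferredoxin reductase (1.23 ± 0.24). RRM2B and FDXR are also among the 30 other p53 targets, so the lists overlap. Integrated stress response genes went the other way at 5 d: 11 of 20 were lower, with PHGDH (-3.40 ± 1.04), ASNS (-2.77 ± 0.92) and TRIB3 (-2.45 ± 0.54), and 1, ATF3 (1.80 ± 0.56), was higher. SESN3, the third sestrin and not a member of the set, rose by 3.49 ± 0.39 on the log2 scale.

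With CDK1i, which holds cells before mitosis, GDF15 was at 30.5 and 21.1 CPM, against 160.0 and 89.4 CPM with DMSO 5 days after IR. The groups did not overlap. The log2 fold change was -2.32 ± 0.45 (edgeR adjusted p = 0.0132), the largest of the set, and leaving out the first DMSO library brought it to -1.83 and ended the call (edgeR adjusted p = 0.0826), as did leaving out the second CDK1i library (-2.06, edgeR adjusted p = 0.0959). TP53INP1 was at 58.0 and 63.1 CPM with CDK1i, against 102 and 93.2 CPM with DMSO (-0.74 ± 0.13, edgeR adjusted p = 0.00809), and its call was lost without the first DMSO library (-0.66, edgeR adjusted p = 0.0581). When only the CDK1i and DMSO libraries were fitted neither gene was called (edgeR adjusted p = 0.14 for both). That fit called 0 of all genes tested, and the log2 fold changes in it were -2.316 for GDF15 and -0.734 for TP53INP1. These 2 of 10 genes were lower, against 7.37% of all genes, and none was higher, against 4.73%. The other 8 had log2 fold changes between -0.60 and -0.09. Of 30 other p53 targets 6 were lower, among them CDKN1A (-1.03 ± 0.19). All 12 proliferation genes had log2 fold changes above 0, with a median of 1.55 and no overlap of libraries. None of them was called, and their part in the result was not tested.

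Loss of cGAS, STING or XRCC4 each went with lower GDF15 at 5 days. The WT libraries of these comparisons are labelled with DMSO and the knockout ones are not, so line and labelled vehicle differ together. GDF15 was at 25.6 and 26.3 CPM in cGAS KO cells, at 12.5 and 22.3 CPM in STING KO cells and at 42.9 and 46.1 CPM in XRCC4 KO cells, against 160.0 and 89.4 CPM in WT cells. Every knockout library lay below both WT libraries. Log2 fold changes were -2.26 ± 0.45 in cGAS KO, -2.84 ± 0.46 in STING KO and -1.48 ± 0.43 in XRCC4 KO cells (edgeR adjusted p = 0.0118, 0.00471 and 0.0352). These comparisons and the CDK1i one share the same 2 WT libraries, so they are not independent of each other. Without the first WT library the values were -1.77, -2.34 and -0.98, and only the STING KO call held (edgeR adjusted p = 0.0697, 0.0281 and 0.197). Leaving out either knockout library also ended the cGAS KO call (edgeR adjusted p = 0.107 and 0.0904) and the XRCC4 KO call (0.166 and 0.145). The untreated WT libraries, at 93.7 and 46.9 CPM, were also above every library of the 3 knockout lines.

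GDF15 was the one gene of the set called in cGAS KO cells and in STING KO cells. In cGAS KO cells 1 of 10 genes was lower, against 6.88% of all genes, and none higher, against 6.65%. In STING KO cells 1 of 10 was lower, against 7.73%, and none higher, against 7.43%. With 1 gene of 10 called, the share of the set lies near the background in both lines. The other 9 genes had log2 fold changes between -0.67 and 0.35 in cGAS KO cells and between -0.21 and 0.16 in STING KO cells. Of 30 other p53 targets 1 was higher and 1 lower in each line, TNFRSF10C (1.57 ± 0.29 and 2.02 ± 0.29) and TRIM22 (-1.23 ± 0.34 and -1.58 ± 0.35).

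In XRCC4 KO cells at 5 d 2 of 10 genes were higher, TP53INP1 and PLK3, against 12.4% of all genes, and GDF15 was the 1 lower, against 12.4% as well. Both shares of the set lay near those of all genes. TP53INP1 was at 158.7 and 156.8 CPM in XRCC4 KO cells, against 102 and 93.2 CPM in WT cells (0.70 ± 0.13, edgeR adjusted p = 0.00374). PLK3 was at 91.1 and 93.5 CPM in XRCC4 KO cells, against 65.6 and 64.1 CPM in WT cells (0.52 ± 0.13, edgeR adjusted p = 0.0158). On log2(FPKM + 1) neither was called, with TP53INP1 at 0.42 and PLK3 at 0.15 (limma adjusted p = 0.0772 and 0.609), and the PLK3 call was also lost without any 1 of the 4 libraries (edgeR adjusted p between 0.0578 and 0.0908). The count depends on the fit, with 8 of 10 called by voom with sample weights and 1 on FPKM. The voom fit also called more of all genes, 5927 against 3758 in the main fit. XRCC4 is a scaffold of DNA ligase IV in non-homologous end joining. Proliferation genes were lower beside these values, 7 of 12 called with a median log2 fold change of -2.10, and their part in the result was not tested.

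XRCC4 loss went with lower GDF15 and higher TP53INP1 at 3 days as well, in the separate libraries of the second experiment. GDF15 was at 95.5 and 95.6 CPM in XRCC4 KO cells, against 260.9 and 260.0 CPM in WT cells. The groups lay far apart and the libraries within each were nearly equal. The log2 fold change was -1.44 ± 0.06 (edgeR adjusted p = 2.92e-17). TP53INP1 was at 147.6 and 144.0 CPM in XRCC4 KO cells, against 64.2 and 66.2 CPM in WT cells, higher by 1.17 ± 0.06 on the log2 scale (edgeR adjusted p = 4.51e-15). TP53I3 was at 275 and 298 CPM in XRCC4 KO cells, against 180.2 and 175.5 CPM in WT cells (0.70 ± 0.05, edgeR adjusted p = 1.24e-11).

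In all, 6 of 10 genes were higher in XRCC4 KO cells at 3 d, against 28.6% of all genes, and 1, GDF15, was lower, against 27.5%. SESN1 (0.43 ± 0.06), BTG2 (0.37 ± 0.04), PLK2 (0.33 ± 0.05) and SESN2 (0.21 ± 0.07) were the smaller of the 6 changes, and all of these lost their call on FPKM, where the median of all genes in this comparison lay 0.127 lower on the log2 scale than with counts. SESN2 was at -0.01 there. TIGAR, ACER2 and PLK3 had log2 fold changes of 0.01 ± 0.05, -0.22 ± 0.13 and 0.05 ± 0.07 and were not called. Of the 30 other p53 targets 23 were higher and 2 lower, the lower ones being PMAIP1 (-1.02 ± 0.10) and PTP4A1 (-0.41 ± 0.05).

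Integrated stress response genes stood lower beside GDF15 in the XRCC4 KO line, with 12 of 20 lower and 3 higher. VLDLR (-3.80 ± 0.27), PHGDH (-2.76 ± 0.21) and CHAC1 (-1.75 ± 0.24) had the largest changes of those lower. NRF2 targets, genes of the antioxidant response, were lower in 8 of 10 and higher in 2, led by HMOX1 (-1.67 ± 0.19). Proliferation genes were lower in 11 of 12. The part of these lists in the values of the set was not tested. Among the relatives of the set SESN3 fell by 2.10 ± 0.19 on the log2 scale, against the direction of SESN1 and SESN2.

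Loss of p53 lowered all 10 genes in MCF10A cells. In p53 KO against WT cells 3 days after IR 10 of 10 were lower, against 27% of all genes, and none was higher, against 25.9%. The median log2 fold change was -2.04, beside 0.01 over all genes tested. In bulk RNA a lower level can come from fewer cells that express a gene or from less RNA in each, which cannot be told apart.

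GDF15 was at 18.7 and 14.9 CPM in p53 KO cells, against 260.9 and 260.0 CPM in WT cells. No library came near those of the other group. The log2 fold change was -3.97 ± 0.07 (edgeR adjusted p = 1.12e-23). ACER2 was at 1.70 and 1.04 CPM in p53 KO cells, against 11.4 and 12.4 CPM in WT cells (-3.11 ± 0.20, edgeR adjusted p = 5.47e-13). TP53INP1 was at 8.33 and 9.21 CPM in p53 KO cells, against 64.2 and 66.2 CPM in WT cells (-2.93 ± 0.09, edgeR adjusted p = 2.66e-19). The p53 KO libraries lay below untreated WT cells of the first experiment, a comparison across experiments that was not tested.

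SESN1 was at 14.7 and 14.1 CPM in p53 KO cells, against 66.1 and 64.8 CPM in WT cells (-2.21 ± 0.08). TIGAR was at 20.9 and 20.8 CPM in p53 KO cells, against 91.0 and 95.8 CPM in WT cells (-2.19 ± 0.06). Both groups were tight for these 2 genes and did not overlap. BTG2 fell by 1.89 ± 0.05, SESN2 by 1.33 ± 0.08, TP53I3 by 1.21 ± 0.06 and PLK3 by 1.16 ± 0.08 on the log2 scale. PLK2 changed least, at 77.9 and 88.6 CPM in p53 KO cells, against 134.0 and 134.8 CPM in WT cells (-0.72 ± 0.06, edgeR adjusted p = 2.61e-11).

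Other p53 targets fell in the same lines, 26 of 30 lower and 2 higher, with EDA2R (-3.56 ± 0.11), CDKN1A (-3.27 ± 0.04) and SPATA18 (-2.92 ± 0.09) furthest down. Of 14 other p53 metabolic targets 10 were lower and 1, LPIN1 (0.21 ± 0.06), was higher. The lower ones included RRM2B (-2.27 ± 0.06), FDXR (-2.04 ± 0.09) and the glutaminase GLS2 (-2.02 ± 0.17). RRM2B and FDXR are counted in both of these lists. Of 14 tested relatives of the set 4 were higher and 5 lower, with a median log2 fold change of -0.25. The higher ones included PLK4 (2.39 ± 0.10) and PLK1 (2.27 ± 0.06), mitotic kinases of the family of PLK2 and PLK3. All 12 proliferation genes were higher beside these values, with a median log2 fold change of 2.15, and their part in the result was not tested.

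**Figure D2:**
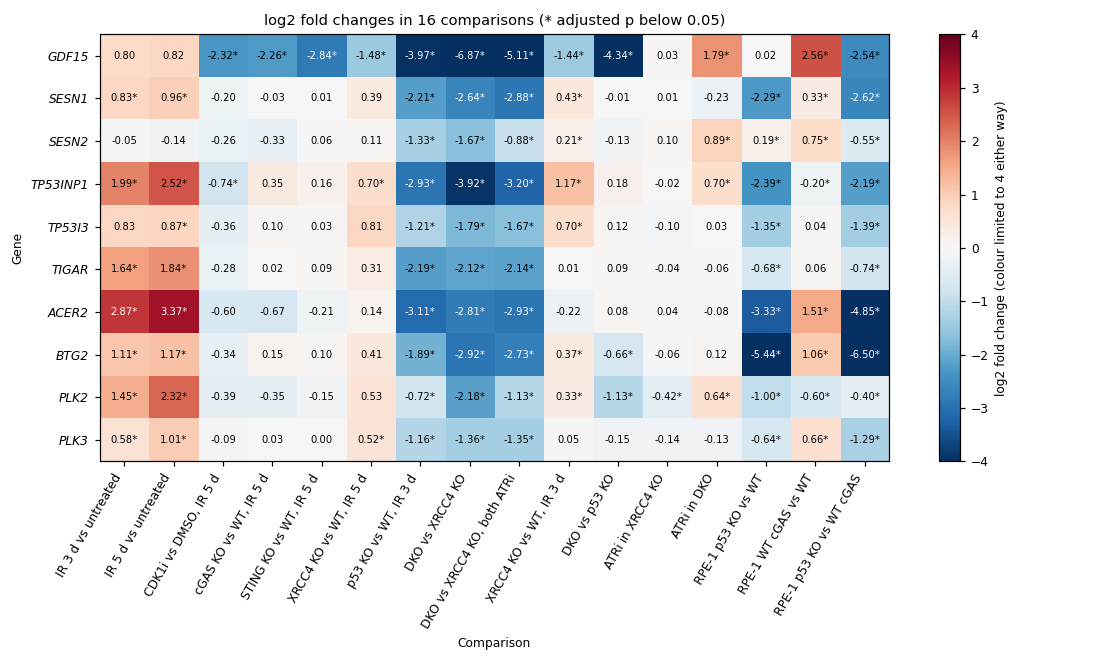
Log2 fold change of each gene (rows) in 16 comparisons (columns), named as the first group over the second. Stars mark an edgeR adjusted p below 0.05, and the colour is limited to 4 either way. GDF15 is called lower in 10 of 16 columns. All 10 genes are called lower in 4 columns, those of p53 KO over WT and DKO over XRCC4 KO MCF10A cells and of RPE-1 p53 KO over WT cGAS. With CDK1i all 10 values are below 0 and 2 are called.

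On the XRCC4 KO background the fall was larger for most of the set. In DKO against XRCC4 KO cells 10 of 10 genes were lower, against 32.7% of all genes, and none higher, against 32.2%. GDF15 was at 0.643 and 0.952 CPM in DKO cells, against 95.5 and 95.6 CPM in XRCC4 KO cells. The lower DKO library rested on 12 counts. The log2 fold change was -6.87 ± 0.14 (edgeR adjusted p = 1.78e-23), the largest of the set in any comparison. TP53INP1 was at 8.85 and 10.1 CPM in DKO cells, against 147.6 and 144.0 CPM in XRCC4 KO cells (-3.92 ± 0.08, edgeR adjusted p = 1.12e-23), and BTG2 at 23.2 and 24.7 CPM in DKO cells, against 183.3 and 183.8 CPM in XRCC4 KO cells (-2.92 ± 0.05, edgeR adjusted p = 1.17e-24).

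The effect of p53 loss differed between the XRCC4 KO and WT backgrounds for 7 of 10 genes, all of them with a larger fall on the XRCC4 KO background. This compares with 22.8% of all genes with a lower difference and 20.9% with a higher one, and none of the set was higher. GDF15 had the largest difference, -2.91 ± 0.24 (edgeR adjusted p = 2.58e-10), followed by PLK2 (-1.46 ± 0.08), BTG2 (-1.02 ± 0.08), TP53INP1 (-0.99 ± 0.14), TP53I3 (-0.58 ± 0.08), SESN1 (-0.44 ± 0.12) and SESN2 (-0.34 ± 0.11). TIGAR, ACER2 and PLK3 had differences of 0.07 ± 0.09, 0.30 ± 0.35 and -0.20 ± 0.11 and were not called. Between DKO and p53 KO cells TP53INP1, TP53I3, SESN1 and SESN2 were not called (0.177, 0.115, -0.007 and -0.134). The same genes were called higher in XRCC4 KO than in WT cells (1.17, 0.70, 0.43 and 0.21). Comparisons of the second experiment share libraries, so they are not independent of each other. On log2(FPKM + 1) the GDF15 difference was -1.63, and on FPKM the number called was 4 in place of 7, without TP53I3, SESN1 and SESN2. The SESN2 call was also lost in DESeq2 (adjusted p = 0.101) and without the first WT library (-0.25, edgeR adjusted p = 0.0802).

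Set against p53 KO cells, DKO cells had 3 of 10 genes lower, against 25% of all genes, and none higher, against 24.6%. The share of the set that was lower lay near that of all genes. GDF15 was at 0.643 and 0.952 CPM in DKO cells, against 18.7 and 14.9 CPM in p53 KO cells (-4.34 ± 0.20, edgeR adjusted p = 2.17e-15). PLK2 was at 35.1 and 38.0 CPM in DKO cells, against 77.9 and 88.6 CPM in p53 KO cells (-1.13 ± 0.06, edgeR adjusted p = 1.06e-13). BTG2 was at 23.2 and 24.7 CPM in DKO cells, against 39.6 and 39.1 CPM in p53 KO cells (-0.66 ± 0.06, edgeR adjusted p = 2.28e-09). The other 7 genes had log2 fold changes between -0.15 and 0.18, none of them called. Integrated stress response genes were lower in 17 of 20 and higher in 1 in the same comparison, led by VLDLR (-2.72 ± 0.26) and PHGDH (-1.51 ± 0.08), and SESN3 fell by 3.86 ± 0.26 on the log2 scale.

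ATRi, an inhibitor of the ATR checkpoint kinase, was given to irradiated XRCC4 KO cells. PLK2 was the 1 of 10 genes lower, against 10.3% of all genes, and none was higher, against 6.67%. With 1 gene of 10 called, the share of the set lay near the background. PLK2 was at 124.0 and 129.0 CPM with ATRi, against 165.1 and 170.7 CPM without (-0.42 ± 0.05, edgeR adjusted p = 1.64e-06), and the call is lost on FPKM (limma adjusted p = 0.155). GDF15 was at 97.2 and 99.0 CPM with ATRi, against 95.5 and 95.6 CPM without (0.03 ± 0.06, edgeR adjusted p = 0.785). The other 8 genes had log2 fold changes between -0.14 and 0.10.

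In DKO cells ATRi raised 4 of 10 genes, against 26.1% of all genes, and lowered none, against 32.4%. GDF15 was at 3.46 and 2.24 CPM with ATRi, against 0.643 and 0.952 CPM without (1.79 ± 0.30, edgeR adjusted p = 1.55e-05; 1.035 on log2(FPKM + 1)). It stayed below every library of the p53 KO line despite this rise. SESN2 was at 33.8 and 33.2 CPM with ATRi, against 17.9 and 17.8 CPM without (0.89 ± 0.08, edgeR adjusted p = 6.37e-10). TP53INP1 was at 14.2 and 16.8 CPM with ATRi, against 8.85 and 10.1 CPM without (0.70 ± 0.11, edgeR adjusted p = 6.81e-06). PLK2 was at 56.1 and 58.8 CPM with ATRi, against 35.1 and 38.0 CPM without (0.64 ± 0.07, edgeR adjusted p = 7.06e-09). The 2 groups did not overlap for any of these 4 genes.

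**Figure D3:**
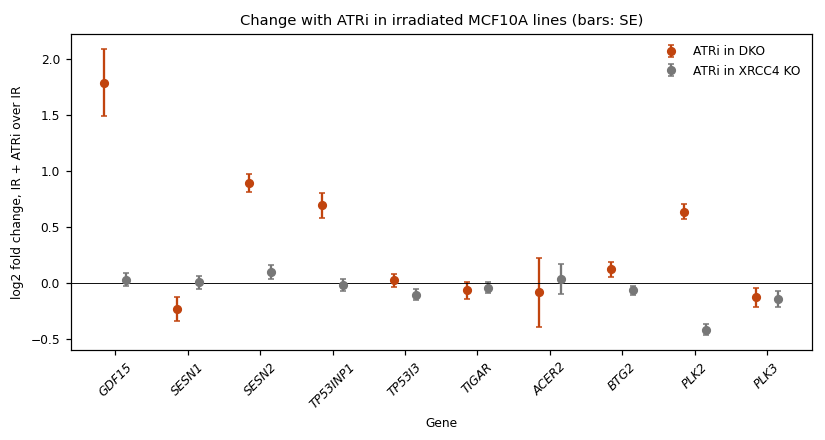
Log2 fold change of each gene with ATRi over IR alone in DKO cells (red) and XRCC4 KO cells (grey), 3 days after IR, with SE bars. GDF15, SESN2, TP53INP1 and PLK2 rose in DKO cells, and PLK2 fell by 0.42 in XRCC4 KO cells.

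The ATRi effect itself was higher in DKO than in XRCC4 KO cells for the same 4 genes, against 13% of all genes, and lower for none, against 21%. The difference was 1.76 ± 0.31 for GDF15 (edgeR adjusted p = 6.97e-05), 1.05 ± 0.08 for PLK2 (3.46e-10), 0.79 ± 0.10 for SESN2 (1.21e-06) and 0.72 ± 0.12 for TP53INP1 (5.27e-05). On log2(FPKM + 1) the GDF15 difference was 1.11 (limma adjusted p = 0.0273). The other 6 differences lay between -0.24 and 0.18. Integrated stress response genes rose beside them, 15 of 20 higher and 2 lower with ATRi in DKO cells and 10 higher and 2 lower in XRCC4 KO cells. Those with the largest rise in DKO cells were ATF3 (3.82 ± 0.07), the glutathione-degrading CHAC1 (3.07 ± 0.13) and PPP1R15A (2.29 ± 0.05), and their part in the change of the set was not tested. Of 30 other p53 targets 9 were higher in DKO cells with ATRi, led by TRIM22 (4.88 ± 0.08), against 26.1% of all genes. A further 10 were lower, led by EDA2R (-0.84 ± 0.15), against 32.4%. Both shares lay near those of all genes. All 12 proliferation genes were lower with ATRi in both lines.

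Under ATRi, DKO against XRCC4 KO cells again had 10 of 10 genes lower, against 36.1% of all genes, and none higher, against 35.7%. GDF15 was at 3.46 and 2.24 CPM in DKO cells, against 97.2 and 99.0 CPM in XRCC4 KO cells (-5.11 ± 0.11, edgeR adjusted p = 2.78e-23). SESN2 had the smallest fall, -0.88 ± 0.07, at 33.8 and 33.2 CPM in DKO cells, against 64.1 and 59.8 CPM in XRCC4 KO cells.

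In hTERT RPE-1 cells, all with IR and ATRi, p53 loss lowered 8 of 10 genes, against 32.5% of all genes, and raised 1, SESN2, against 34.2%. BTG2 was at 0.653 and 1.40 CPM in p53 KO cells, against 48.3 and 46.1 CPM in WT cells. The lower p53 KO library rested on 13 counts and the groups lay far apart, and the log2 fold change was -5.44 ± 0.16 (edgeR adjusted p = 6.35e-14). ACER2 was at 0.503 and 0.242 CPM in p53 KO cells, resting on 10 and 5 counts, against 3.79 and 4.11 CPM in WT cells (-3.33 ± 0.33, edgeR adjusted p = 5.69e-08). TP53INP1 was at 29.0 and 29.0 CPM in p53 KO cells, against 166.6 and 150.9 CPM in WT cells (-2.39 ± 0.06, edgeR adjusted p = 2.81e-16). SESN1 was at 8.50 and 8.23 CPM in p53 KO cells, against 43.8 and 41.6 CPM in WT cells (-2.29 ± 0.08, edgeR adjusted p = 5.1e-14).

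TP53I3, PLK2, TIGAR and PLK3 fell by 1.35 ± 0.07, 1.00 ± 0.05, 0.68 ± 0.06 and 0.64 ± 0.06 on the log2 scale, and the PLK3 call is lost on FPKM (limma adjusted p = 0.0501). GDF15 was at 3.82 and 4.55 CPM in p53 KO cells, against 4.08 and 4.56 CPM in WT cells (0.02 ± 0.17, edgeR adjusted p = 0.943). The groups overlapped at a level far below that of MCF10A WT cells. In the authors' FPKM GDF15 was at 7.78 and 6.85 in p53 KO cells, against 5.68 and 3.925 in WT cells, without overlap. The log2 difference there was at most 0.62 and was not called (limma adjusted p of 0.0778 or more), on a scale where the median of all genes lay 0.226 higher than with counts. SESN2 was at 62.3 and 74.0 CPM in p53 KO cells, against 63.8 and 60.8 CPM in WT cells (0.19 ± 0.08, edgeR adjusted p = 0.0373). Its groups overlapped as well, and the call was lost in 6 of 13 alternative fits, with 0.05 left without the second p53 KO library (edgeR adjusted p = 0.508). Whether p53 loss acted differently on GDF15 in the 2 cell lines was not tested, because the lines were fitted apart and only the RPE-1 cells of that comparison had ATRi in both arms.

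Other p53 targets in RPE-1 p53 KO cells were lower in 23 of 29 and higher in 5, with EDA2R (-7.99 ± 0.19), CYFIP2 (-3.92 ± 0.09) and ZMAT3 (-3.90 ± 0.07) lowest and PMAIP1 (1.22 ± 0.06) highest. Of the 20 integrated stress response genes 15 were higher and 1 lower, led by PPP1R15A (2.11 ± 0.05) and DDIT3 (1.93 ± 0.06), and all 13 immediate early genes were higher, led by FOSB (3.08 ± 0.15). Proliferation genes were higher in 11 of 12 beside these values. The part of any of these lists in the values of the set was not tested.

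The WT cGAS line had 6 of 10 genes higher than WT, against 29.8% of all genes, and 2 lower, against 30%. GDF15 was at 24.4 and 25.3 CPM in WT cGAS cells, against 4.08 and 4.56 CPM in WT cells, the largest change of the set (2.56 ± 0.12, edgeR adjusted p = 2.17e-12). Leaving out the second WT library, in which MB21D1 was higher, gave 2.63. ACER2 was at 10.2 and 11.8 CPM in WT cGAS cells, against 3.79 and 4.11 CPM in WT cells (1.51 ± 0.16, edgeR adjusted p = 1.31e-07). BTG2 was at 91.3 and 100.2 CPM in WT cGAS cells, against 48.3 and 46.1 CPM in WT cells (1.06 ± 0.07, edgeR adjusted p = 2.89e-09). SESN2, PLK3 and SESN1 rose by 0.75 ± 0.07, 0.66 ± 0.06 and 0.33 ± 0.06 on the log2 scale.

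PLK2 was at 478 and 422 CPM in WT cGAS cells, against 706 and 694 CPM in WT cells (-0.60 ± 0.05, edgeR adjusted p = 4.54e-08), and TP53INP1 fell by 0.20 ± 0.05, a call that was lost on FPKM (limma adjusted p = 0.966) and without the first WT library (edgeR adjusted p = 0.0843). TP53I3 (0.04 ± 0.06) and TIGAR (0.06 ± 0.06) were not called. Other p53 targets were higher in 25 of 29 and lower in 2, led by PMAIP1 (2.36 ± 0.06) and DDB2 (2.26 ± 0.13), and proliferation genes were lower in 11 of 12. Against the WT cGAS line, p53 KO cells had 10 of 10 genes lower, against 32.8% of all genes, and none higher, against 31.8%. The 2 comparisons with p53 KO cells share those libraries. GDF15 was at 3.82 and 4.55 CPM in p53 KO cells, against 24.4 and 25.3 CPM in WT cGAS cells (-2.54 ± 0.11), and SESN2 at 62.3 and 74.0 CPM in p53 KO cells, against 100.7 and 102.5 CPM in WT cGAS cells (-0.55 ± 0.07, edgeR adjusted p = 1.12e-05).

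**Figure D4:**
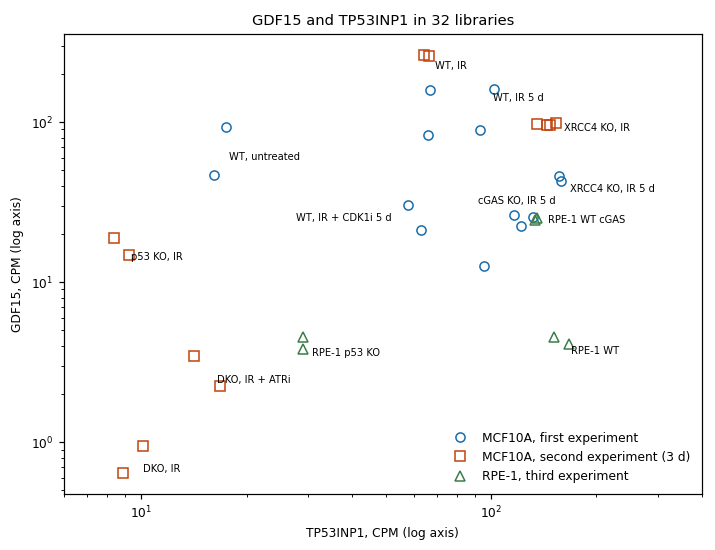
GDF15 against TP53INP1 in CPM on log axes, 1 point per library, with symbols for the 3 experiments and some groups named. In XRCC4 KO cells of the second experiment TP53INP1 is above and GDF15 below the WT libraries, and in RPE-1 WT cells GDF15 is at 4.08 and 4.56 CPM with TP53INP1 at 166.6 and 150.9 CPM.

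Across groups GDF15 followed the other genes in one experiment and not in another. Pearson correlations of mean log2 CPM between GDF15 and the other 9 genes lay between 0.81 and 0.96 over the 6 groups of the second experiment, and between -0.35 and 0.40 over the 7 groups of the first. Over the same groups SESN2 correlated with TP53INP1 at 0.96 in the second experiment and at -0.10 in the first. The points of the second experiment share a split, since the 3 groups without p53 lay below the 3 others for every gene of the set. The 5 genes most like GDF15 over both experiments, by the smaller of the 2 correlations among 14969 genes, were MPI, PIAS3, PLXNB2, ZNF528 and ITGA3, with correlations over the first experiment of 0.95, 0.94, 0.92, 0.92 and 0.905 and over the second of 0.97, 0.97, 0.99, 0.91 and 0.94. They are a description of shared level patterns over few groups.

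Some of the values rest on shared gene intervals. On hg19 the table gives GDF15 at chr19:18485541-18499986, an interval it shares with MIR3189, SESN1 at chr6:109307640-109416022, shared with RNU6-653P and AL390208.1, SESN2 at chr1:28586038-28609002 and BTG2 at chr1:203274619-203278730. TIGAR lies at chr12:4416929-4463759, an interval shared with AC006122.1, ACER2 at chr9:19409057-19452018, PLK2 at chr5:57749809-57756087 and PLK3 at chr1:45265897-45272347, whose interval also holds TCTEX1D4. TP53I3 at chr2:24299396-24424567 shares its interval with PFN4, FAM228A and FAM228B, and that of TP53INP1 holds NDUFAF6, INTS8 and CCNE2. The sources used here do not say how counts were assigned among genes of one interval.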

How the data were processed

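Polyadenylated RNA was sequenced from 32 libraries in 16 groups of 2, in 3 experiments that were fitted apart. The deposited table of estimated counts per gene and the authors' deposited FPKM table were used; STAR, Cuffnorm, DESeq2, bcl2fastq and FastQC and the build hg19 appear in the submitters' processing notes, while versions, annotation and counting rules are not given here. Estimated counts were rounded to whole numbers. The main test was edgeR 4.0.16's quasi-likelihood F test (R 4.3.3) with TMM scaling after edgeR's filter on low counts by group, on 15190, 16632 and 15469 of 60332 genes. Adjustment was by Benjamini-Hochberg across every gene of the fit, with calls made below 0.05. With 2 libraries a group, an exact permutation test cannot go below a 2-sided p of 0.333, so none is given.

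Levels are CPM scaled by TMM over all 32 libraries; levels of different genes were compared only in FPKM. Total estimated counts of 5590061 to 18585999 per library limit precision for genes with few counts. Alternatives were DESeq2 1.42.0, DESeq2's size factors in edgeR, limma 3.58.1 on log2(FPKM + 1) and log2(FPKM + 0.1), voom with sample weights, no filter, only the groups compared, a replicate block, each library left out and, added after seeing the data, edgeR's older quasi-likelihood fit. The members and gene lists were chosen with earlier results of these data known. From each list up to 3 called genes per direction with the largest changes may be named, and for GDF15 the 5 genes most like it. The scripts were tested on simulated counts.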

Additional observations from a re-analysis of the deposited data

Results flagged for a closer look

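The effect of ATRi on irradiated cells differed between DKO and XRCC4 KO cells, by the test of the difference itself, for 4 of 10 genes, all higher. Over all genes tested 13% had a higher difference and 21% a lower one. The difference was 1.76 on the log2 scale for GDF15, 1.05 for PLK2, 0.79 for SESN2 and 0.72 for TP53INP1.

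The effect of p53 loss differed between the XRCC4 KO and WT backgrounds, by the same kind of test, for 7 of 10 genes, all lower. Over all genes tested 22.8% had a lower difference and 20.9% a higher one. The difference was -2.91 on the log2 scale for GDF15, -1.46 for PLK2, -1.02 for BTG2, -0.99 for TP53INP1, -0.58 for TP53I3, -0.44 for SESN1 and -0.34 for SESN2. Groups of 2 libraries are too small to look for single libraries that stand apart.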

How the results depend on the processing

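Over 190 gene-by-comparison results and 2550 alternatives, 2331 kept their direction and side of the threshold, 79 lost the call and 33 gained one. SESN2 in XRCC4 KO against WT cells at 3 d turned to -0.008 on both FPKM scales, and 105 more changed sign while uncalled in either fit. The cause of these changes was not tested.

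Counts of the 10 genes called moved by over 1.5 times as follows. On log2(FPKM + 1) and log2(FPKM + 0.1) alike, XRCC4 KO at 5 d gave 1 in place of 3, XRCC4 KO at 3 d gave 3 in place of 7, ATRi in XRCC4 KO cells gave 0 in place of 1 and the difference of p53 effect gave 4 in place of 7. IR at 3 d gave 4 in place of 7 on log2(FPKM + 0.1). With voom weights IR at 3 d gave 4, cGAS KO 3 in place of 1 and XRCC4 KO at 5 d 8. For cGAS KO and XRCC4 KO at 5 d voom also called the most of all genes, 4267 and 5927. With only the groups compared IR at 3 d gave 0, CDK1i 0 in place of 2, cGAS KO 2 and XRCC4 KO at 5 d 8. Such fits called 1 of all genes tested for IR at 3 d and 0 for CDK1i. DESeq2 gave 2 in place of 0 between 3 and 5 d.

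With 1 library left out the counts ran from 4 to 6 for IR at 3 d, 7 to 8 at 5 d, 0 to 2 for CDK1i, 0 to 1 for cGAS KO, 1 to 1 for STING KO, 1 to 2 for XRCC4 KO at 5 d, 6 to 8 at 3 d, 1 to 2 for ATRi in XRCC4 KO cells, 3 to 4 for DKO against p53 KO, 4 to 5 for ATRi in DKO cells and its difference, 6 to 8 for the difference of p53 effect, 8 to 9 for RPE-1 p53 KO and 7 to 8 for WT cGAS. They stayed at 10 in the 4 comparisons with all genes lower, and at 0 between 3 and 5 d. A lone library is then assumed to vary like the other groups.

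Over all genes, IR at 3 d called 991 (1 to 1364 over the alternatives), IR at 5 d 4458 (1132 to 4569), 5 d against 3 d 40 (0 to 430), CDK1i 1838 (0 to 2258), cGAS KO 2055 (359 to 4267), STING KO 2303 (663 to 2388), XRCC4 KO at 5 d 3758 (1412 to 5927), p53 KO 8796 (5642 to 8787), DKO against p53 KO 8259 (4719 to 8275), ATRi in DKO cells 9729 (5574 to 10325), RPE-1 WT cGAS 9254 (5975 to 9396), RPE-1 p53 KO against WT cGAS 10005 (6026 to 10050), ATRi in XRCC4 KO cells 2831 (658 to 2984), the ATRi difference 5662 (1799 to 6003) and the p53 difference 7265 (3603 to 7466).

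The labels do not pair libraries by replicate number. Correlations of deviations between same-numbered libraries ran between -0.26 and 0.432 in the first experiment, with 7 of 21 group pairs above 0.1. They ran from -0.051 to 0.063 in the second and from -0.021 to 0.03 in the third. Some groups of the first experiment may thus share a pattern by number, and its source was not tested. With number as a block the counts at 3 d and 5 d of IR were 7 and 8, XRCC4 KO at 5 d had 4, with TP53I3 called (0.83, edgeR adjusted p = 0.0482), and no other call of the 10 genes changed.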
